A study of Mus musculus with 5 samples.

Results

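Expression of 8 transcription factor genes of the erythroid and megakaryocyte lineages, Gata1, Gata2, Zfpm1, Klf1, Gfi1b, Tal1, Lmo2 and Nfe2, was examined in mouse haematopoietic stem cells (HSCs). The genes were chosen by name, with earlier results of these data known. All 8 were present among the 11643 genes of the deposited table. RNA was sequenced from HSCs of C57BL/6 bone marrow, sorted by the gate Lin-, Kit+, Sca1+, CD150+ and CD48-, to ask how loss of the co-repressors TLE1, TLE3 and TLE4 alters the cells. The 2 libraries labelled Tle1/3/4-deficient came from mice with floxed Tle1, Tle3 and Tle4 and Vav-Cre, a recombinase driven in all blood cells. The 3 control libraries are titled control HSCs, with codes that begin with VavC and are not explained. Whether those mice carried Cre or floxed alleles, and the age of any mouse, is not given in the sources used here. The values are FPKM (fragments relative to transcript length and library total), which allows levels to be compared between genes. The labels do not name the animals behind the replicates. The p-values therefore cover the spread between these libraries alone, which may be technical.

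The targeted genes did not uniformly follow the labels. Tle3 stood at 32.3 and 31.6 FPKM in the libraries labelled deficient, against 2.48, 4.97 and 5.61 FPKM in the controls. Tle4 was at 0.353 and 0.203 FPKM against 5.67, 0.0129 and 5.29 FPKM, and Tle1 at 2.84 and 4.37 FPKM against 1.83, 0.811 and 3.33 FPKM. A gene-level FPKM includes exons outside a floxed part, so by itself it cannot show whether that part was lost. Why Tle3 was higher in the libraries labelled deficient was not tested. Every direction below rests on the labels. Labelled-deficient replicate 2 stood apart. The summed level of 25 granulocyte and monocyte genes was 12088 and 73531 FPKM in labelled-deficient replicates 1 and 2, against 1047, 3568 and 2766 FPKM in the controls. All 25 of these genes had their highest value in replicate 2, and none was at 0 in either library labelled deficient. Genes of the sort gate did not share a direction. Kit was at 102 and 102 FPKM in the libraries labelled deficient and at 165, 185 and 149 FPKM in the controls. Ly6a, the Sca1 gene, was at 155.4 and 14.05 FPKM against 57.84, 96.34 and 199.2 FPKM, so the groups overlapped. Slamf1, the CD150 gene, was higher, at 31.76 and 31.03 FPKM against 14.85, 23.95 and 21.11 FPKM. Ly6a and Slamf1 were named here after their values were seen. Columns summed to between 599137 and 683822 FPKM, and absolute depth is unknown.

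GATA2 is the GATA zinc finger factor of stem and early progenitor cells, and it gives way to GATA1 as cells enter the erythroid and megakaryocyte lineages. FOG-1, the product of Zfpm1, binds GATA1 and GATA2 and brings co-repressors to them. TAL1, a basic helix-loop-helix factor that binds E-boxes with E proteins, is joined to GATA factors by the LIM protein LMO2 and its partner LDB1. KLF1 binds CACCC boxes in red cell genes, GFI1B is a zinc finger repressor needed for red cells and platelets, and NFE2 pairs with small MAF proteins to drive late megakaryocyte and globin genes.

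Promoter sequences from RefSeq (GRCm38.p6) are shown for Klf1, Gfi1b and Gata1, the factors with the largest fold changes below. The table held 8 windows for 6 of the 8 genes, each spanning 250 bases before and 50 after an annotated start. Lmo2 and Nfe2 had none. Windows were searched on both strands for GATA motifs (AGATAA or AGATAG, and equally TGATAA or TGATAG), E-boxes of the TAL1 type (CAGCTG or CAGATG), the CACCC box (CACCC) and the core shared by NF-E2 and AP-1 (TGAGTCA or, on the other strand, TGACTCA). Matches are in capitals in the 250 bases before each start, and no match overlapped another. The windows are Klf1 at chr8:84901732-84901981 on the plus strand, Gfi1b at chr2:28621983-28622232 on the minus strand and Gata1 at chrX:7967911-7968160 on the minus strand.
Klf1: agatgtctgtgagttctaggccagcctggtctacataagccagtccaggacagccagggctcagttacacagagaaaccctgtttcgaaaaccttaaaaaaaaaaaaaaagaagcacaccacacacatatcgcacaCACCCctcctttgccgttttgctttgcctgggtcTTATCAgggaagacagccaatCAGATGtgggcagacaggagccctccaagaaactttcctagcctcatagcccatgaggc
Gfi1b: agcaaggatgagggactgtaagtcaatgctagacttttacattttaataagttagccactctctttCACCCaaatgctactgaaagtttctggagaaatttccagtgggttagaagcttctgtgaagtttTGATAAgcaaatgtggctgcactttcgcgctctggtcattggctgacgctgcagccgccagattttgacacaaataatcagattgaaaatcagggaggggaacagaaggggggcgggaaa
Gata1: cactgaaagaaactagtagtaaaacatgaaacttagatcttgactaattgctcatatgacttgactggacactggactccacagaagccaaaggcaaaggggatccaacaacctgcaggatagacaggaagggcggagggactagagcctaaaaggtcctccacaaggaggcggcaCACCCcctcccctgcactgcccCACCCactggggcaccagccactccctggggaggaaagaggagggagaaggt

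The Klf1 window held a CACCC box 114 bases, a GATA motif 80 bases and an E-box 59 bases before the start, with a further CACCC box 28 bases after it. The Gfi1b window held a CACCC box 184 bases and a GATA motif 120 bases before the start. The Gata1 window held CACCC boxes 74 and 52 bases before the start and no GATA motif or E-box. Among the others, a GATA motif lay 205 bases before the first Tal1 start. E-boxes lay 10 bases after that start and 17 bases after the second Gata2 start. CACCC boxes lay 138 bases before the first Tal1 start and 235 bases before the second Gata2 start. Zfpm1 had 3 CACCC boxes, and neither the first Gata2 window nor the second Tal1 window held any of these motifs. None of the 8 windows held the NF-E2 and AP-1 core. Of all 32851 promoter windows, 29.8% held a GATA motif, 30.6% an E-box, 57.5% a CACCC box and 5.20% the NF-E2 and AP-1 core. These matches are descriptions of the letters and not of binding.

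The 8 factors ranged in the controls from Lmo2 at 560 ± 85.8 FPKM to Klf1 at 3.94 ± 1.28 FPKM (SD, n = 3). By mean over the 5 libraries Lmo2 held rank 173 and Nfe2 rank 346 among all genes, and Tal1 was the lowest of the factors at rank 4414. In the libraries labelled deficient the order was Lmo2, Nfe2, Gata2, Gfi1b, Gata1, Klf1, Zfpm1 and Tal1. In the controls it was Lmo2, Nfe2, Gata2, Gfi1b, Gata1, Tal1, Zfpm1 and Klf1. The first 4 places were held by the same genes with no overlap between neighbours in either group. Below them the labelled-deficient ranges of Gata1, Klf1, Zfpm1 and Tal1 overlapped between neighbours. In the controls Gfi1b and Gata1, Gata1 and Tal1, and Tal1 and Zfpm1 overlapped, while Klf1 lay below every value of Zfpm1. No factor was at 0 in any library.

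**Figure D1:**
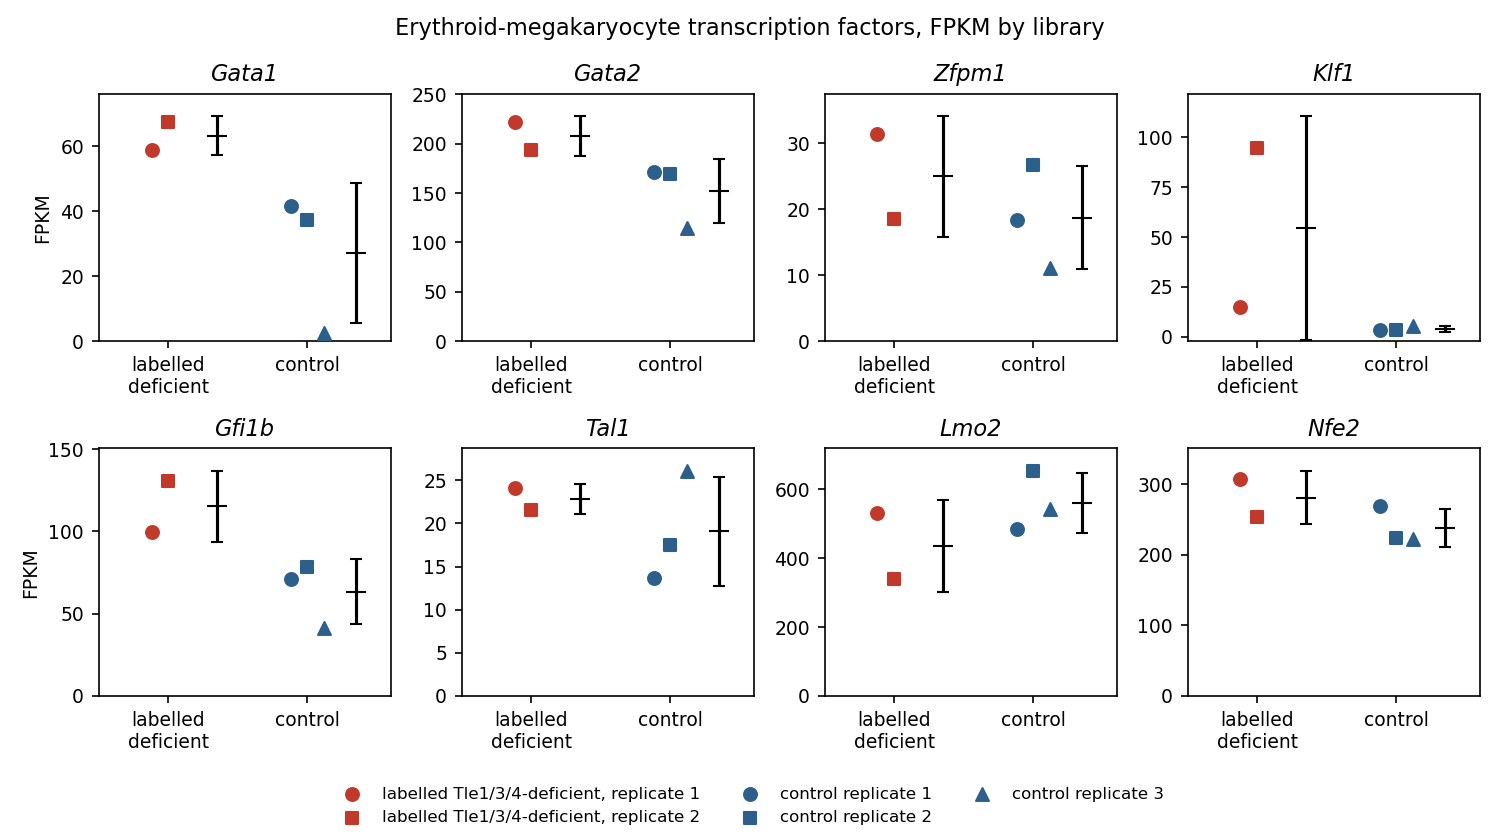
FPKM of each factor in the 2 libraries labelled deficient (red) and the 3 control libraries (blue), with the group mean and SD in black beside the points and a separate vertical scale for each gene. Klf1, Gata1, Gfi1b and Gata2 lie above every control in both libraries labelled deficient, and control replicate 3 is the lowest point for Gata1, Gata2, Gfi1b, Zfpm1 and Nfe2.

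Over all 10570 genes tested with limma on log2(FPKM + 1), 2 passed an adjusted p of 0.05 (0.0189%), and none of the 8 factors did. At an unadjusted p under 0.05 were 2 of the 8, Klf1 and Gfi1b, against 8.45% of all genes. Klf1, Gata1, Gfi1b and Gata2 lay above every control in both libraries labelled deficient, 4 of 8, against 10.2% of all tested genes. None of the 8 lay below every control, where 15.9% of all genes did. Fold changes were positive for 7 of 8 against 44.3% of all genes. Their median log2 fold change was 0.45, against -0.10 for all tested genes. These counts describe a small set chosen by name with earlier results of these data known, and are not a test of the set. In bulk RNA, fewer cells of a type and less RNA per cell cannot be told apart.

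**Figure D2:**
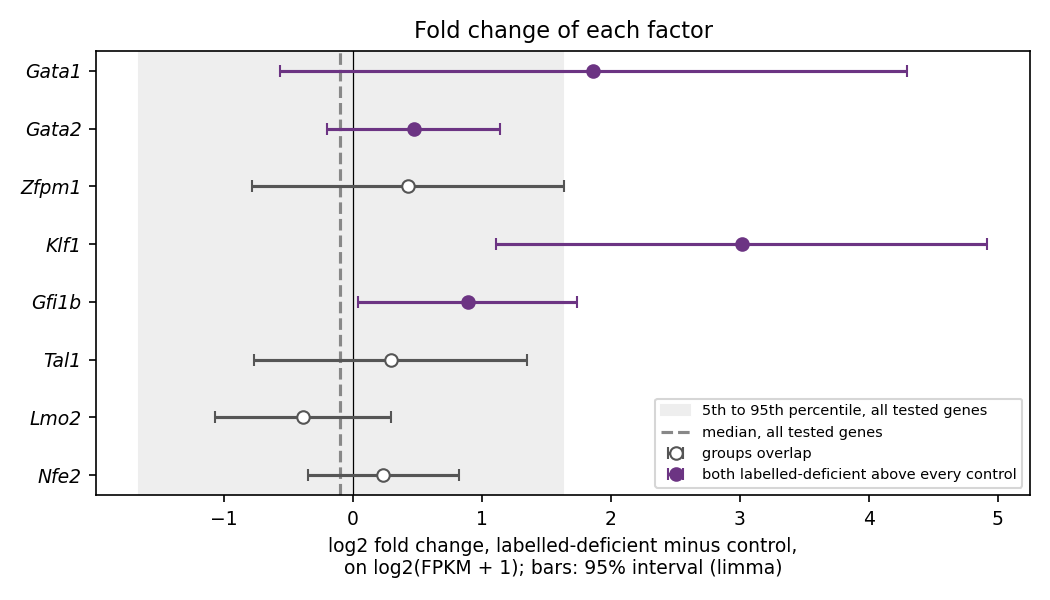
Log2 fold change of each factor, labelled-deficient minus control, on the log2(FPKM + 1) scale, with its 95% interval from limma. The grey band holds the central range of all tested genes (5th to 95th percentile, -1.66 to 1.63), and Klf1 at 3.02 and Gata1 at 1.87 lie beyond it.

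Gata1 was at 59.0 and 67.5 FPKM in the libraries labelled deficient, against 41.6, 37.4 and 2.33 FPKM in the controls. The groups did not overlap, and control replicate 3 stood far below the other controls. The log2 fold change was 1.87 (SE 1.04, 95% interval -0.56 to 4.29; limma, adjusted p = 0.663). Without control replicate 3 it was 0.67 (adjusted p = 0.763). The relative Gata2 was at 222 and 194 FPKM against 171, 170 and 114 FPKM, again with no overlap and with control replicate 3 lowest. Its log2 fold change was 0.47 (SE 0.29, limma, adjusted p = 0.687), and 0.28 without control replicate 3.

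The ratio of Gata1 to Gata2 FPKM, a simple reading of the balance between the early and late GATA factors, was 0.266 and 0.349 in the libraries labelled deficient. It was 0.242, 0.220 and 0.0204 in the controls. Gata2 thus remained above Gata1 in every library, and the lowest labelled-deficient ratio exceeded the highest control by less than the controls differed among themselves. Zfpm1, the FOG-1 gene, was at 31.4 and 18.5 FPKM against 18.3, 26.7 and 11.1 FPKM. The groups overlapped, and the log2 fold change of 0.43 (SE 0.52, limma, adjusted p = 0.838) was 0.80 without labelled-deficient replicate 2, 0.063 without replicate 1 and 0.12 without control replicate 3. In GENCODE M21 the Zfpm1 locus overlaps another gene model, Gm20388, on the same strand, so reads of the pair could be split or shared.

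Klf1, the red cell CACCC-binding factor, was at 15.04 and 94.4 FPKM in labelled-deficient replicates 1 and 2, against 3.19, 3.21 and 5.42 FPKM in the controls. Both labelled-deficient values exceeded every control, and they differed from each other 6.28-fold. The log2 fold change of 3.02 (SE 0.82, 95% interval 1.11 to 4.92) was larger than that of 98.9% of tested genes but did not pass (limma, unadjusted p = 0.00681, adjusted p = 0.433). It was 1.73 without labelled-deficient replicate 2 (adjusted p = 0.577) and 4.30 without replicate 1 (adjusted p = 0.224). Klf1 held rank 5185 of all genes in replicate 1 and rank 1010 in replicate 2, and between rank 7889 and 8661 in the controls. The library with the highest Klf1 was also the one with the highest granulocyte and monocyte sum, 73531 FPKM, and the part of such RNA in the Klf1 value was not tested.

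Gfi1b, the gene of the repressor needed for red cells and platelets, was at 99.9 and 130 FPKM in the libraries labelled deficient. It was at 70.9, 78.5 and 41.0 FPKM in the controls. The groups did not overlap. The log2 fold change was 0.89 (SE 0.36, 95% interval 0.039 to 1.74; limma, unadjusted p = 0.0425, adjusted p = 0.569), and it lay between 0.61 and 1.08 when each library was left out. Its relative Gfi1, which encodes a repressor that acts in neutrophil precursors and stem cells, was far lower, listed at 0 and at 9.20 FPKM against 3.77, 0.0240 and 3.88 FPKM.

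Tal1 and Lmo2, partners in the complex that joins E-boxes to GATA motifs, overlapped between the groups. Tal1 was at 24.1 and 21.6 FPKM against 13.7, 17.4 and 26.1 FPKM, with control replicate 3 the highest of all 5 libraries. Its log2 fold change of 0.29 (SE 0.45, 95% interval -0.76 to 1.35) did not pass (limma, adjusted p = 0.889). Lmo2 was at 530 and 341 FPKM in the libraries labelled deficient and at 484, 653 and 542 FPKM in the controls. It alone of the 8 had a negative log2 fold change, -0.39 (SE 0.29, 95% interval -1.07 to 0.29; limma, adjusted p = 0.733), which was -0.067 without labelled-deficient replicate 2. Without replicate 1 it was -0.70 (limma, unadjusted p = 0.0432, adjusted p = 0.460), and without control replicate 1 it was -0.48; in both of these runs Lmo2 lay below every control. Tal1 was a small fraction of Lmo2 in every library, with ratios of 0.0455 and 0.0634 in the libraries labelled deficient against 0.0282, 0.0267 and 0.0481 in the controls. In GENCODE M21 Lmo2 overlaps 4931422A03Rik on the opposite strand, and whether the counting used strand is not given in the sources used here.

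Nfe2 varied least. It was at 308 and 254 FPKM in the libraries labelled deficient, against 270, 224 and 222 FPKM in the controls, and its highest value was 1.39 times its lowest. The groups overlapped as deposited. The log2 fold change was 0.23 (SE 0.25, 95% interval -0.35 to 0.82; limma, adjusted p = 0.816). It was 0.097 without labelled-deficient replicate 1, and 0.37 without replicate 2, where the groups no longer overlapped. After median-of-ratios scaling, which moves the median of all genes from -0.10 to 0.015, both labelled-deficient values of Nfe2 lay above every control and 5 of the 8 factors did so, against 13.6% of all genes.

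Within the controls, replicate 3 held the lowest value of all 5 libraries for 5 of the 8 factors, where 11.7% of all tested genes had their lowest value there. The exceptions were Tal1, Klf1 and Lmo2. The 8 summed to 1290 and 1121 FPKM in the libraries labelled deficient and to 1073, 1210 and 964 FPKM in the controls. The 2 libraries labelled deficient divided the factors. Klf1, Gfi1b and Gata1 were higher in replicate 2, and Zfpm1, Lmo2, Nfe2, Gata2 and Tal1 in replicate 1.

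Profiles were compared for the 4 factors that varied over the 5 libraries by more than 1 on the log2(FPKM + 1) scale, by the root mean square distance between centred profiles, among 6602 candidates with a mean of at least 10 FPKM. For Gata1 the nearest were Cap1, Fam133b and Gripap1 (distances 0.36 to 0.46), each listed at 0 in control replicate 3. For Klf1 they were Cxcr2, Anxa1 and Slfn4 (0.38 to 0.42). Cxcr2 was at 5.54 and 48.8 FPKM against 0.229, 0.435 and 0.578 FPKM. For Gfi1b they were Adam17, Rab5a and Erbb2ip (0.045 to 0.12), and for Zfpm1 Umad1, Gnl3l and Drosha (0.097 to 0.13). The closest fellow factor was Gfi1b for Gata1 and Klf1, at 1.12 and 1.36, and Gata2 for Gfi1b and Zfpm1, at 0.30 and 0.27. Between 44 and 340 candidates lay nearer than that, so over 5 libraries these profiles are shared with many genes.

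Genes whose products work with the 8 factors had fold changes in both directions, and none passed over all genes (limma). Over all tested genes 10.2% lay above every control and 15.9% below, the shares to set beside each such list count that follows. Of 14 tested genes for partners in the TAL1-LMO2-LDB1 complex, 1 lay above every control and 3 below, with a median log2 fold change of -0.29. Lyl1, a close relative of TAL1, was far more abundant than Tal1, at 265 and 190 FPKM against 244, 210 and 162 FPKM. Ssbp4, which binds LDB1, was at 141 and 106 FPKM against 50.8, 93.8 and 91.6 FPKM. The 3 below every control, chosen after their values were seen, were Ldb1, Erg and Cbfa2t2. Ldb1, the bridge to LMO2, was at 16.3 and 15.6 FPKM against 32.6, 23.0 and 24.3 FPKM. The E protein gene Tcf4 ranged from 8.18 to 62.8 FPKM in the controls alone and was at 16.6 and 9.03 FPKM in the libraries labelled deficient.

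Of 10 tested co-repressor genes that act with GFI1B, 1 lay above every control (Gse1) and 2 below (Hdac2 and Phf21a), with a median of -0.12. The histone deacetylase gene Hdac1 was at 146 and 119 FPKM against 147, 140 and 112 FPKM. Its relative Hdac2 was lower in both libraries labelled deficient, at 49.5 and 64.7 FPKM against 84.6, 95.6 and 111 FPKM (log2 fold change -0.76, limma, adjusted p = 0.548). Of 11 tested genes for NuRD and CtBP co-repressors, which bind FOG-1, none lay above every control and 1 lay below (median -0.055). That gene was Rbbp7, a histone-binding subunit, at 127 and 206 FPKM against 275, 215 and 260 FPKM.

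Of 7 tested partners and rivals of NFE2, 2 lay above every control and none below (median 0.40). They were Mafg, a small MAF that pairs with NFE2, at 34.2 and 30.3 FPKM against 9.24, 13.1 and 18.7 FPKM, and Nfe2l2, an NFE2 relative of the oxidative stress response. Mafg had a log2 fold change of 1.23 (limma, adjusted p = 0.546). Among 13 tested family relatives of the factors, 2 lay above every control (Lmo4 and Nfe2l2) and 3 below (Gata3, Klf9 and Klf10), with a median of 0.15. Gata3, the GATA factor of T cells that HSCs also express, was at 8.40 and 1.92 FPKM against 19.1, 15.6 and 15.9 FPKM (log2 fold change -1.76, limma, adjusted p = 0.537), opposite in direction to Gata1 and Gata2. Klf2 was at 0.109 and 130 FPKM in the libraries labelled deficient and at most 0.827 FPKM in the controls, so its value rested on replicate 2.

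**Figure D3:**
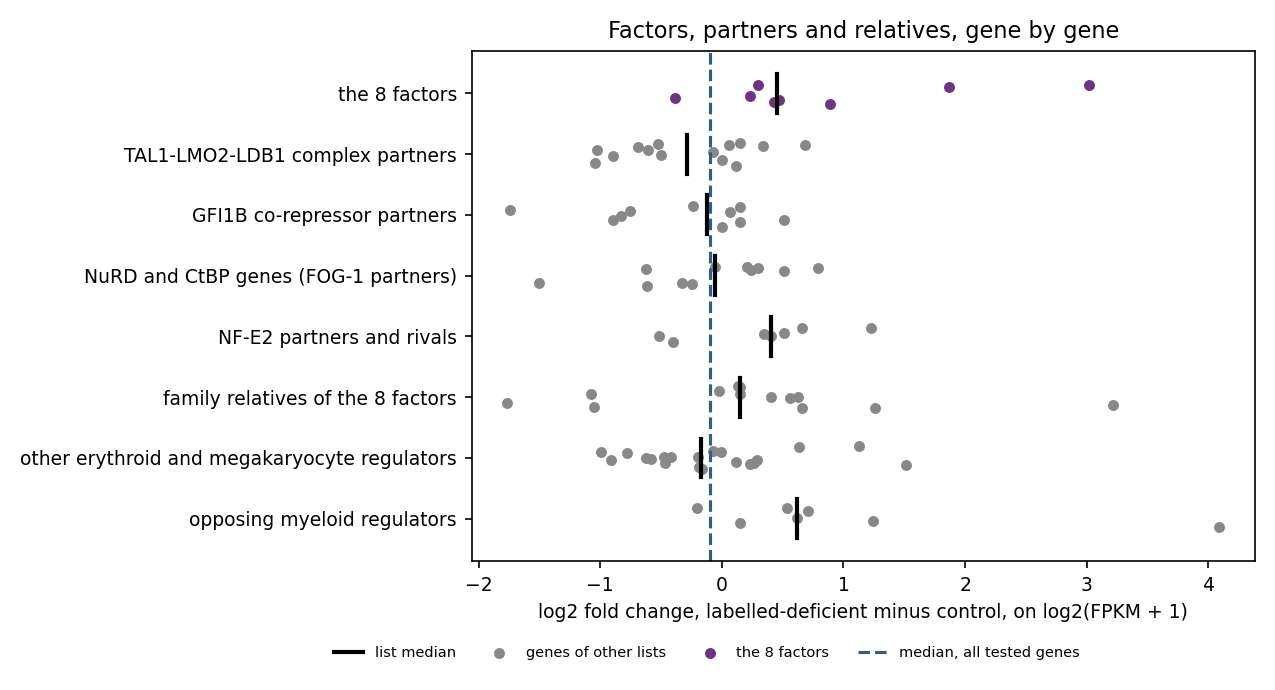
Log2 fold change, labelled-deficient minus control, of each tested gene in the 8 factors and in lists of their partners, relatives and rivals, with the list median as a black bar. The 8 factors have a median of 0.45 and the TAL1-LMO2-LDB1 partners one of -0.29, against -0.10 for all tested genes, and genes on several lists appear on each.

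Of 20 tested further regulators of these lineages, 2 lay above every control (Trim58 and Ndel1) and 6 below (median -0.17). Trim58, a ubiquitin ligase of maturing red cells, was at 3.90 and 16.6 FPKM against 2.63, 2.22 and 1.94 FPKM, and Myb, which keeps progenitors immature, at 30.6 and 52.7 FPKM against 58.5, 105 and 87.3 FPKM (Myb was chosen after its values were seen). Myeloid regulators, listed as opposing in the figures, differed between the libraries labelled deficient. Whether each of them opposes GATA1 in these cells was not tested. All 7 tested had their highest value in replicate 2, where 16.4% of all genes did. Spi1, which encodes PU.1, was at 114 and 255 FPKM against 157, 79.6 and 109 FPKM. The ratio of Gata1 to Spi1 was 0.519 and 0.265 in the libraries labelled deficient against 0.265, 0.469 and 0.0214 in the controls, with overlap between the groups.

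Genes that act downstream in each lineage were then set beside the factors. No gene of either list passed over all genes (limma). Of 25 tested erythroid genes, 8 lay above every control and none below, against 10.2% and 15.9% of all tested genes. Of the 8, Ermap and Kel were under 1 FPKM in every control, so they passed the filter only through the libraries labelled deficient. The median log2 fold change of the list was 1.37. The highest value lay in labelled-deficient replicate 2 for 16 of them and in replicate 1 for 5, against 16.4% and 21.5% of all tested genes. Set against the control mean of each gene, the erythroid median was 0.071 in replicate 1 and 1.79 in replicate 2. Car1, a carbonic anhydrase of early red cells, was at 14.7 and 299 FPKM against 0.134, 5.68 and 3.68 FPKM. Ermap, a red cell membrane protein, was at 1.82 and 26.3 FPKM, listed at 0 in control replicates 1 and 2 and at 0.0713 FPKM in replicate 3. Car2, the most abundant of the list, was at 906 and 1075 FPKM against 1076, 1069 and 792 FPKM. Klf1 and the median of the erythroid list were thus highest in replicate 2, whereas Gata1 was 1.14 times as high in replicate 2 as in replicate 1. That trait was not particular to red cell genes. All 25 tested granulocyte and monocyte genes and all 7 tested myeloid regulators were also highest in replicate 2, with Cebpe on both lists.

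Of 23 tested megakaryocyte and platelet genes, 11 lay above every control, with a median log2 fold change of 1.23. Here the medians against the control mean were 1.25 in labelled-deficient replicate 1 and 0.99 in replicate 2, and 12 genes had their highest value in replicate 1. Pf4, a platelet chemokine, was at 7503 and 3023 FPKM against 839, 512 and 255 FPKM, and Cd9 at 692 and 448 FPKM against 203, 172 and 135 FPKM. Their lowest control was replicate 3, as for Gata1, Gfi1b and Gata2.

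Because GATA2 and GATA1 also act in mast cells and basophils, and because the sort should remove other lineages, markers of other cells were read in the same way. The shares of all tested genes were again 10.2% above every control and 15.9% below. Of 10 tested mast cell and basophil genes, 3 lay above every control (Srgn, Gzmb and Prss34) and 2 below (Kit and Mitf), with a median of 0.70. The 11 genes of this list with values summed to 1179 and 1626 FPKM against 1119, 1063 and 1074 FPKM. Most of each sum was Srgn, at 978 and 824 FPKM against 812, 797 and 786 FPKM. Fcer1g was at 59.0 and 629 FPKM against 132, 51.6 and 118 FPKM. At 0 were 2 of 11 genes in labelled-deficient replicate 1 and none in replicate 2, against 7, 2 and 2 in the controls. Mitf, a mast cell transcription factor, was listed at 0 and at 0.0216 FPKM in the libraries labelled deficient and at 9.40, 15.5 and 13.5 FPKM in the controls (limma, adjusted p = 0.345). Of 25 tested granulocyte and monocyte genes, 18 lay above every control and none below (median 3.97). Of 25 HSC genes, 1 lay above (Slamf1) and 11 below every control (median -0.69). Of 7 tested lymphoid genes, 3 lay above every control (Nkg7, Klrb1c and Vpreb1) and none below (median 1.58). Of 7 tested endothelial and stromal genes, 1 lay above (Cxcl12) and 1 below (Emcn) every control (median 0.82). Among the genes above, Klrb1c, Vpreb1, Cxcl12, Gzmb and Csf1r were under 1 FPKM in every control. They passed the filter only through the libraries labelled deficient and could not have lain below every control. Conversely, Mitf and Ndn were under 1 FPKM in both libraries labelled deficient and passed only through the controls. The part of the cells of these lists in the levels of the 8 factors was not tested.

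**Figure D4:**
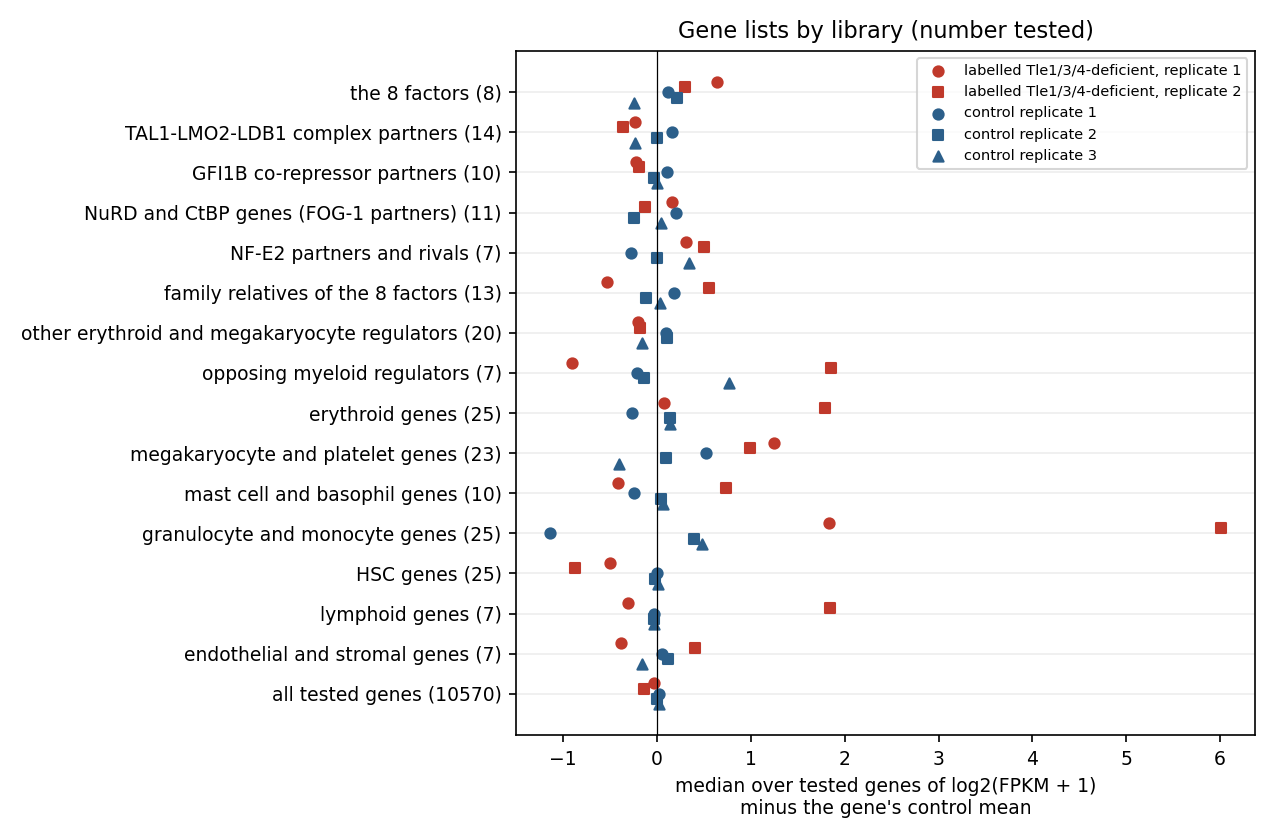
Median over the tested genes of each list of log2(FPKM + 1) minus the gene's control mean, for each labelled-deficient (red) and control (blue) library. The 8 factors lie at 0.63 and 0.30 in the libraries labelled deficient, the megakaryocyte list at 1.25 and 0.99, and the erythroid list at 0.071 and 1.79, while the granulocyte list reaches 6.01 in replicate 2.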

How the data were processed

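Sample titles gave the group and replicate number of the 5 libraries. The authors deposited FPKM per gene symbol. Per the submitters' processing notes the build was mm9 and the tools TopHat and edgeR, with no version or role; the tool that made FPKM, its annotation and any use of strand are not stated there. Since FPKM is relative to the library total, a few dominant genes can depress the rest of a library.

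The comparison used limma 3.58.1 (R 4.3.3) on log2(FPKM + 1), two-sided, with group as the term and a trended eBayes prior, over the 10570 genes whose mean reached 1 FPKM. P-values were adjusted by Benjamini-Hochberg over all of these, at a threshold of 0.05. Fold changes of low genes are understated on this scale. A gene under 1 FPKM in every library of a group passed the filter only through the other group, so its direction was partly set by the filter. The test was checked on simulated data. Lists, ratios and profiles are descriptions, from Python 3.11.15 with pandas 2.3.3. The 8 genes and the lists were chosen with earlier results of these data known. Named beside the 8 and the targeted genes were 3 nearest profiles each, and per list the 2 most abundant genes and the 2 with the largest fold changes among those reaching 10 FPKM, of which only some are given. Genes named because a count was small were chosen after their values were seen, as were the ratios. The values of 1 listed gene are not reported here. Promoters (RefSeq, GRCm38.p6) and overlaps (GENCODE M21) were matched by symbol, since mm9 coordinates were not used here.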

Additional observations from a re-analysis of the deposited data

How the results depend on the processing

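No factor passed the threshold under any of the 17 alternatives, namely other pseudocounts, filters, scalings, eBayes settings and thresholds, array weights, the replicate block, a run without on-off genes (those whose lowest value is under 0.1 and whose highest reaches 10 FPKM) and runs that leave out each library. Each of the 8 kept the sign of its fold change in all 17, and the lowest adjusted p was 0.224, for Klf1 without labelled-deficient replicate 1 (limma). The filters, the eBayes settings, the run without on-off genes and the other threshold left every fold change of the 8 as it was. A sign could not change in those runs. The replicate block gave the same fold changes as the run without control replicate 3. Fold changes of Gata1 ran from 0.67 to 2.62, of Klf1 from 1.73 to 4.30 and of Tal1 from 0.091 to 0.53. The median over the factors was 0.30 to 0.64 with each library left out. In these runs 5 to 6 of the 8 had groups that did not overlap. Those above every control were 4 to 6, against 14.9% to 26.7% of all genes, and Lmo2 lay below every control in 2 runs, as did 22.5% to 33.5% of all genes over the 5 runs. Runs that leave out a library labelled deficient keep 1, which is assumed to vary like the controls.

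The count over all genes, 2 as reported, was 0 with a pseudocount of 0.1 or 0.5, without a filter and with array weights, 1 with eBayes without trend, 4 after median-of-ratios scaling and without on-off genes, and 5 with robust eBayes and at a threshold of 0.1. With each library left out it was 0 to 5. With the replicate number as a block it was 22. Deviations of same-numbered libraries had correlations of 0.035 and 0.0069, so the numbers are not shown to pair the libraries. Counting error cannot be given for FPKM of unknown depth.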
